A study of Mus musculus with 2 samples.

Results

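Progenitor spermatogonia low in Gfra1 were described here in single-cell RNA profiles of mouse testis at 13 days of age. They were chosen by their own transcripts, and the rule found 335 cells in the control library and 52 in the knockout library, 387 of the 22096 cells in all (11232 control and 10864 knockout cells). Barcodes were taken as cells from 1000 UMIs (unique molecular identifiers, the counted RNA molecules) and 500 genes upward, with at most 20% mitochondrial UMIs. A cell was a member with at least 3 UMIs of the germ cell genes Ddx4 and Dazl together, at most 1 UMI of Gfra1, at most 1 of Kit, and at least 1 UMI of Upp1, Sox3, Neurog3 and Nanos3 together. Members also had fewer than 2 UMIs of Esx1 and Dmrtb1 together and, per 10000 UMIs, fewer than 10 of Stra8, fewer than 20 of Sycp1 and fewer than 10 of the Sertoli cell genes Aard, Cst9, Cst12 and Sox9 together. Levels of these 16 genes are therefore given as a description only.

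Spermatogonia are the mitotic germ cells at the edge of the seminiferous tubule. GFRA1, a receptor for GDNF from the niche, marks the cells with the most stem cell activity. Their offspring pass through a progenitor state that still belongs to the undifferentiated pool, loses GFRA1 and gains SOX3, NEUROG3, UPP1 and the retinoic acid receptor RARG, and retinoic acid then turns progenitors into differentiating spermatogonia that carry KIT. The control, titled WT, was Psma7 F/+, with 1 floxed and 1 wild-type copy of Psma7, and its label names no Cre. The conditional knockout was Psma7 F/-;Stra8-Cre KI/+, with a floxed copy, a deleted copy in every cell and a Cre driven by Stra8, a gene that retinoic acid switches on in spermatogonia. Both were C57BL/6, and Psma7 encodes an α subunit of the 20S core of the proteasome. How many animals each library holds and which exons are floxed is not given in the sources used here. With 1 library per genotype there was no replicate and no test: every interval is at 95%, covers counting error only, and a difference between the libraries may come from the genotype, the animal or the preparation.

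Control and knockout members had like depth per cell. They held 4596030 and 715589 UMIs in all, with medians of 12374 and 11800 UMIs and 5076 and 4954 genes per cell. Sertoli cells made up 35% of the control and 65.9% of the knockout cells, with median depths of 5061 and 4129 UMIs. Rhox8, a Sertoli cell gene, stood at 285 CPM in the free RNA of the control and 697 CPM in that of the knockout library (CPM, UMIs per 1000000), and at 9.79 and 22.4 CPM in members. The libraries shared 29 cell barcodes, of which 2 belonged to control members and none to knockout members.

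Progenitors were 6.23-fold scarcer per cell in the knockout library (interval 4.64 to 8.51). They made up 2.98% of the control cells (2.68 to 3.31) and 0.479% of the knockout cells (0.358 to 0.627). Cells called GFRA1-positive below had at least 2 UMIs of Gfra1, needed no marker UMI and met the other limits. They numbered 234 and 166, which is 2.08% (1.83 to 2.36) and 1.53% (1.31 to 1.78) of the cells. Cells called KIT-positive had at least 2 UMIs of Kit, and likewise needed no marker UMI and met the other limits. They numbered 499 and 29, or 4.44% (4.07 to 4.84) and 0.267% (0.179 to 0.383). The control library thus held 1.36 times as many GFRA1-positive cells per cell (1.11 to 1.67), 6.23 times as many progenitors and 16.6 times as many KIT-positive cells (11.4 to 25.1), a ratio larger at each later state, with intervals that do not overlap.

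Progenitors were a smaller share of the undifferentiated pool in the knockout library. Of progenitors and GFRA1-positive cells together, progenitors were 58.9% in the control (335 of 569, 54.7 to 63.0) against 23.9% for the knockout (52 of 218, 18.4 to 30.1). A marker UMI was asked of progenitors only, so 412 control and 49 knockout cells low in Gfra1 and Kit without one are in neither part. Per 100 Sertoli cells there were 8.53 control progenitors and 0.727 knockout progenitors. Against all germ cells the direction turned, with 8.59% (7.73 to 9.51) of 3900 control germ cells and 14.1% (10.7 to 18.1) of 368 knockout germ cells, since germ cells themselves were 34.7% and 3.39% of the cells. The share within the pool depends on depth: with every cell thinned to 5000 UMIs before the rule was applied, fewer cells reached 2 UMIs of Gfra1 and progenitors were 79.2% of the control pair and 43.6% of the knockout pair. The shares were 48.1% and 15.9% with 0 UMIs of Gfra1 allowed, 47.1% and 16.6% with 2 marker UMIs asked, and 42.8% and 17% without Sox3 in the rule. Some members held RNA of Meioc and Prss50, genes of later germ cells described below. With cells at 2 or more of these UMIs left out, 245 control and 47 knockout progenitors remained. The shares were then 54% and 23.2%.

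**Figure D1:**
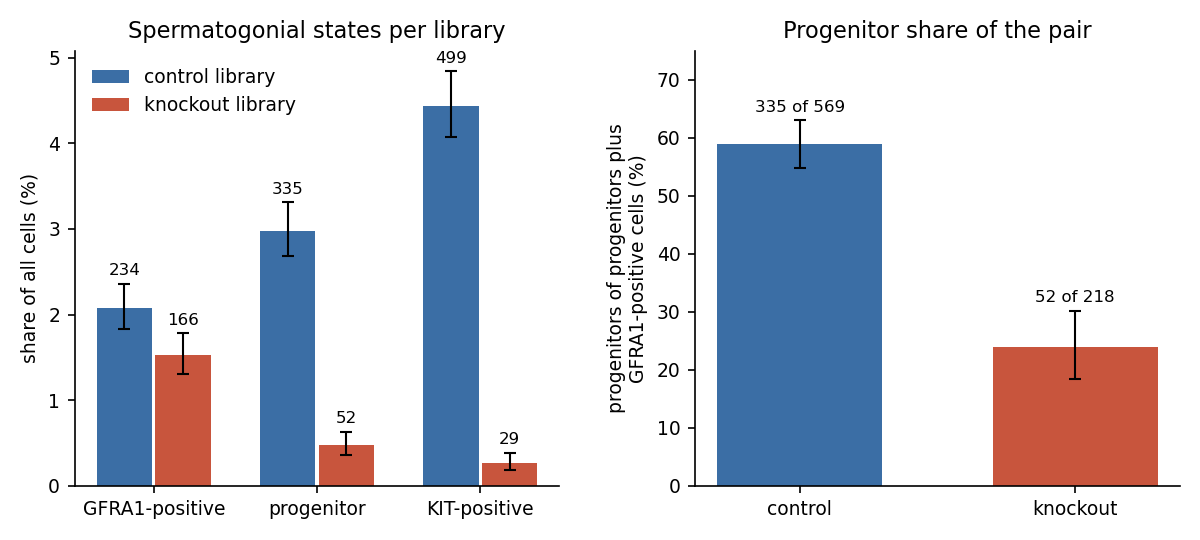
Left, share of all cells (%) that were GFRA1-positive, progenitor or KIT-positive in each library, with the number of cells above each bar. Right, progenitors as a share (%) of progenitors plus GFRA1-positive cells. Error bars are exact 95% binomial intervals, and the progenitor share of the pair is 58.9% for the control and 23.9% for the knockout.

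The steps of the rule removed different cells in the 2 libraries. Of the 3900 control and 368 knockout germ cells, 92.2% and 47.0% had at most 1 UMI of Gfra1, so the Gfra1 limit took more than any other single step from the knockout germ cells. The limit on Esx1 and Dmrtb1, genes that come on as spermatogonia differentiate, kept 50.1% of the control cells that had reached it and 95.4% of the knockout cells. Just inside the Gfra1 limit, at 1 UMI, lay 54 control and 15 knockout members, and just outside it, at 2 UMIs, 29 and 19 cells. At the Kit limit the numbers were 99 and 14 members at 1 UMI, and 100 and 7 cells at 2 UMIs. A single marker UMI admitted 127 of the control members and 19 of the knockout members, and 412 and 49 cells met every other limit without a marker UMI.

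Sox3, a transcription factor gene of the X chromosome, admitted most members. It had a UMI in 298 control members (89.0%) and 41 knockout members (78.8%), and was the only marker in 160 and 18 of them. Nanos3, which encodes an RNA-binding protein that protects germ cells, had a UMI in 112 (33.4%) and 18 members (34.6%). Upp1, the gene of uridine phosphorylase, had one in 98 (29.3%) and 14 (26.9%), and Neurog3, a basic helix-loop-helix factor, in 45 (13.4%) and 11 (21.2%). Most members rested on 1 of the 4 genes, 190 of the control cells (56.7%) and 28 of the knockout cells (53.8%), while 13 and 2 cells held all 4. The markers were also seen in a low share of Sertoli cells. Thinned to 5000 UMIs per cell (288 control and 47 knockout members, 47 and 5 being too shallow) Sox3 was seen in 56.2% and 44.7% of members against 1.51% and 0.261% of Sertoli cells, and Nanos3 in 14.2% and 10.6% against 0.151% and 1.23%.

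Upp1, Sox3 and Neurog3 had their highest level in progenitors in both libraries, and Nanos3 in the control only. Upp1 stood at 31.6 CPM in GFRA1-positive cells, 48.7 in progenitors and 12.8 in KIT-positive cells of the control, and at 2.88, 23.8 and 2.92 CPM in the knockout library. Sox3 stood at 64.3, 167 and 144 CPM in the control and at 35.8, 129 and 107 in the knockout library. Neurog3 was the only one of the 4 with more CPM in knockout than in control progenitors, at 30.7 CPM (19.3 to 46.5, 22 UMIs in 11 cells) against 12.8 (9.77 to 16.6, 59 UMIs in 45 cells), and 1 knockout cell held 7 of the 22 UMIs. At 5000 UMIs per cell the shares went the other way, with Neurog3 in 4.26% of knockout members (2 of 47, 0.52 to 14.5) and 6.6% of control members (4.02 to 10.1), so no order is read from it. In GFRA1-positive cells Neurog3 was at 1.28 CPM in the knockout and 5.85 in the control library. Nanos3 was at 39.6 CPM in control and 27.9 in knockout progenitors, with intervals that overlap (34.1 to 45.8 and 17.1 to 43.2). Since at least 1 marker UMI was asked of progenitors and none of the other states, a higher level in progenitors was in part set by the rule.

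Rarg, the progenitor marker that the rule did not use, was lower in the knockout members. It had 145 UMIs in 105 of 335 control members, 31.5 CPM (26.6 to 37.1), and 10 UMIs in 5 of 52 knockout members, 14 CPM (6.70 to 25.7). Rarg lay under the limit used below for a measured gene. The log2 ratio of knockout over control was -1.11 (-2.27 to -0.25), and 1 knockout cell held 6 of the 10 UMIs; without the top cell of each library it was -2.29. At 5000 UMIs per cell Rarg was seen in 16% of control members (11.9 to 20.7) and 1 of 47 knockout members (2.13%, 0.0539 to 11.3), and in 0.953% and 0.373% of Sertoli cells. In the control Rarg went from 12.5 CPM in GFRA1-positive cells to 31.5 in progenitors and 27.1 in KIT-positive cells, and in the knockout library from 6.72 to 14 and 23.4 CPM. The progenitor and GFRA1-positive intervals overlap in the knockout library (6.70 to 25.7 and 4.16 to 10.3) and not in the control (26.6 to 37.1 and 9.18 to 16.6).

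**Figure D2:**
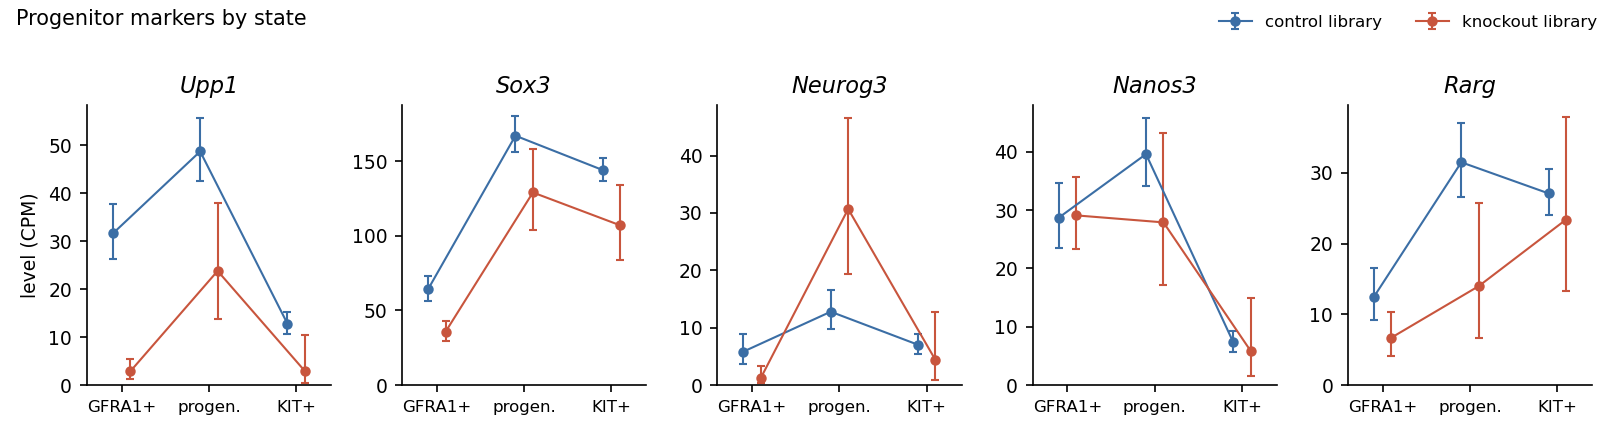
Levels (CPM) of the 5 progenitor markers in GFRA1-positive cells, progenitors and KIT-positive cells of the control and knockout libraries, with exact 95% Poisson intervals. Rarg took no part in the rule and stands at 31.5 CPM in control and 14 CPM in knockout progenitors.

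The marker genes were placed on mm10 with the GENCODE M21 annotation, all as protein-coding genes. Upp1 (ENSMUSG00000020407) lies at chr11:9118103-9136170 on the plus strand, Neurog3 (ENSMUSG00000044312) at chr10:62133090-62134763 on the plus strand and Rarg (ENSMUSG00000001288) at chr15:102234938-102257517 on the minus strand. Sox3 (ENSMUSG00000045179) lies at chrX:60891366-60893430 and Nanos3 (ENSMUSG00000056155) at chr8:84173731-84185217, both on the minus strand. The 250 bases before the start site are shown for Upp1 and Neurog3, which took part in the rule, and for Rarg, which did not, because NEUROG3 and SOHLH1, both factors of these cells, belong to the family that binds the E-box. Sequences are from RefSeq on GRCm38.p6, 5′ to 3′ on the gene's strand, and capitals mark the E-box letters CANNTG, which read the same on both strands. Each of the 3 holds 1 such match.
Upp1 (chr11:9117758-9118007, plus): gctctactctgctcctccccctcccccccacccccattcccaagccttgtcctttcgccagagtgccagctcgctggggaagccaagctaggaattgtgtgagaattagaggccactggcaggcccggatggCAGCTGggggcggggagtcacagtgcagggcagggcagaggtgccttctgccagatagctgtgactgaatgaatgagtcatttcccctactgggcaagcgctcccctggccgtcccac
Neurog3 (chr10:62132840-62133089, plus): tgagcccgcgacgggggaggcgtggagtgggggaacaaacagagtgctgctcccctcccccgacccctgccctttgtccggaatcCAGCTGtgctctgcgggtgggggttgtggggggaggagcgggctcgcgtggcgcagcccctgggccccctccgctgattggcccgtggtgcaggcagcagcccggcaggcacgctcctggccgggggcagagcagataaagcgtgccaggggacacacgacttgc
Rarg (chr15:102257523-102257772, minus): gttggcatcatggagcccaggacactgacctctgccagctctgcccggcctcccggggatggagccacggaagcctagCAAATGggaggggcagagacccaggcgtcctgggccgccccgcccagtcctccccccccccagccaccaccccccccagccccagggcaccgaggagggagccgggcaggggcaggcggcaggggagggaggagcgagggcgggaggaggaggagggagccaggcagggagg
Of all 32851 promoter stretches of this length, 66.2% hold a CANNTG, so the matches describe the sequence and no more. The match is CAGCTG in Upp1 and Neurog3 and CAAATG in Rarg.

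Psma7, the targeted gene, was lower in every state of the knockout library than in the control. It had 1103 UMIs in the control members, 240 CPM (226 to 255), and 80 UMIs in 30 of 52 knockout members, 112 CPM (88.6 to 139), a log2 ratio of -1.09 (-1.45 to -0.77) or 46.9% of the control level. In GFRA1-positive cells the ratio was -1.36 (-1.56 to -1.17), in KIT-positive cells -2.20 (-2.73 to -1.75), and in Sertoli cells, where the Cre is not meant to act but 1 copy is deleted by genotype, -1.38 (-1.44 to -1.33). After thinning to 5000 UMIs before the rule the progenitor ratio was -1.68. Control members with at least 2 UMIs of Meioc and Prss50, genes of later germ cells, held Psma7 at 145 CPM (126 to 167). The other control members held it at 281 CPM (263 to 300). In knockout members the 2 values were 127 CPM (74 to 203) and 108 CPM (83.2 to 139). With all members, the progenitor interval overlaps those of GFRA1-positive and Sertoli cells and not that of KIT-positive cells. Psma7 (ENSMUSG00000027566) lies at chr2:180036374-180042433 on the minus strand, and a 3′ tag may be counted from transcripts that lack the floxed part.

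RNA of other cell types differed between the 2 sets of members. All 7 stromal markers (Dcn, Pdgfra, Col1a1, Col3a1, Col1a2, Tcf21 and Igf1) were detected in both, with a summed level of 627 CPM in control and 2898 CPM in knockout members. In the knockout library 4 members stood at 10 or more stromal UMIs per 10000, up to 384, and in the control 14 members stood there, up to 221. Without the members that held 10 or more stromal or peritubular myoid UMIs per 10000 (14 control and 4 knockout cells) the stromal sums were 118 and 242 CPM. Sertoli markers, 10 of 10 detected in both, summed to 349 and 615 CPM, and Leydig markers to 17 and 18.2 CPM with Insl3 at 0 in both. Macrophage markers summed to 6.74 and 12.6 CPM with Adgre1 at 0 in both. Scrublet, a doublet caller run on each library, marked 23 control members and 1 knockout member.

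A later germ cell signal lay inside the rule as well. Meioc, which encodes a stabiliser of meiotic transcripts, and Prss50, a serine protease gene of differentiating germ cells, together had at least 2 UMIs in 90 of 335 control members (26.9%, 22.2 to 32.0) and in 5 of 52 knockout members (9.62%, 3.20 to 21.0). Sertoli cells held such RNA too, and more of it in the control. Control first, Prss50 was at 5.52 and 0.0884 CPM there, Meioc at 5.2 and 0.221, and the meiotic gene Sycp3 at 27.7 and 3.87. The part of free RNA in the members' later signal was not tested. Where a 2-fold difference of a gene named from a list is lost without both kinds of member, the value without them is given. Those exclusions were chosen after the data had been seen and leave 236 control and 44 knockout cells.

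In both libraries progenitors were set apart from GFRA1-positive cells first by low stem cell genes. Of 12577 genes measured in the control (a mean level worth at least 20 UMIs in the smaller of the sums compared), 493 (3.92%) were at least 2-fold lower and 405 (3.22%) at least 2-fold higher in progenitors. Of 19 measured stem cell genes 13 were at least 2-fold lower and none higher, with a median log2 ratio of -2.20. In the knockout library 177 of 7602 genes (2.33%) were 2-fold lower and 225 (2.96%) higher, and 5 of 10 stem cell genes were lower with a median of -1.21. Gfra1 chose the cells, so lower levels of genes that go with it describe the gate.

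The genes of the largest difference from GFRA1-positive cells were read in the control and set beside the knockout library. Kcnc2, a potassium channel gene, went from 655 CPM to 48.1 in the control (log2 ratio -3.77, -3.97 to -3.57) and from 697 to 134 in the knockout library (-2.37, -2.69 to -2.08). Lhx1, a transcription factor gene that GDNF maintains, went from 29.5 to 1.74 CPM in the control (-4.00, -5.33 to -3.05) and from 59.8 to 21.0 in the knockout library (-1.47, -2.38 to -0.75). The intervals of the difference do not overlap between libraries for either gene, and in both the knockout difference was the smaller. Both genes were picked by their control ratio, however, which by itself favours a smaller difference in the knockout library. Lhx1 also had only 8 UMIs in control progenitors. The gate differed too, with 1 UMI of Gfra1 in 28.8% of knockout and 16.1% of control members, so no order is read from this. The remaining 6 of the 8 lowest genes, Cd93, Jdp2, Spry4, Cbln2, Cd109 and Tmem132e, had at most 6 UMIs each in knockout progenitors.

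Higher in control progenitors than in GFRA1-positive cells were germ cell genes of the next steps and genes of lymphocytes. Prss50 was at 123 against 7.44 CPM, Ly6k, which encodes a surface protein of germ cells, at 166 against 11.4 CPM, and Zfp286os, an antisense transcript, at 42.0 against 2.13 CPM. Zfp286os was the only one of the 8 highest that could be measured in the knockout library, at 60.1 against 0.640 CPM. Lymphocyte genes entered through few cells: Gzmc had 96 UMIs in 3 control members, Cd3g 66 UMIs in 2 and Ccl4 119 UMIs in 8, and 1 member held 112 of the 119. Cd3e and H2-Ab1 were spread more widely, with 51 UMIs in 23 members and 66 UMIs in 28. The part of a second cell in these members was not tested.

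Against KIT-positive cells, control progenitors were lowest in genes of endothelial and Leydig cells. A single KIT-positive control cell held 147 of the 171 Cldn5 UMIs of that state. Cldn5 stood at 0.870 CPM in progenitors and 17 in KIT-positive cells, Emcn at 0.870 and 15.1, and Cyp17a1, an enzyme of androgen synthesis, at 1.52 and 13.5. Of 13145 genes measured in the control, 390 (2.97%) were 2-fold lower and 488 (3.71%) 2-fold higher in progenitors, and of 7581 in the knockout library 275 (3.63%) and 196 (2.59%). Among the highest, beside lymphocyte genes such as Gzmb and Nkg7 in 2 members each, were Fbxw27 at 13.5 against 0.793 CPM and Kcnc2 at 48.1 against 4.26 CPM. Meiotic entry genes were higher in control progenitors for 7 of 21 (median 0.64) and in knockout progenitors for 0 of 15, with 1 lower (median -0.32). In the 90 control members with at least 2 UMIs of Meioc and Prss50, Sycp3 was at 1061 CPM. In the other 245 it was at 161 CPM. KIT-positive control cells, from which no such cells were taken out, held it at 200 CPM. For Sycp3 the higher level in control progenitors thus lay in those 90 members only.

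Of 7582 genes measured in the progenitors of both libraries, 301 (3.97%) were at least 2-fold higher and 165 (2.18%) at least 2-fold lower in the knockout library, and the median gene stood at a log2 ratio of -0.01. Many of the higher genes rested on few cells: in 57 of the 301, 1 knockout member held at least 50% of the UMIs. Without the cell with the most UMIs of each gene in each library, 164 of the 301 stayed 2-fold higher, although that removal takes more from the smaller knockout sum and moves the median gene to -0.15. Without the members holding somatic or Meioc and Prss50 RNA, 183 of the 301 and 54 of the 165 stayed past 2-fold. A gene low in 1 library is measured only when it is higher in the other, so some counts past 2-fold are in part set by this limit. The counts of the gene lists below are to be read beside the 3.97% and 2.18% of all measured genes.

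**Figure D3:**
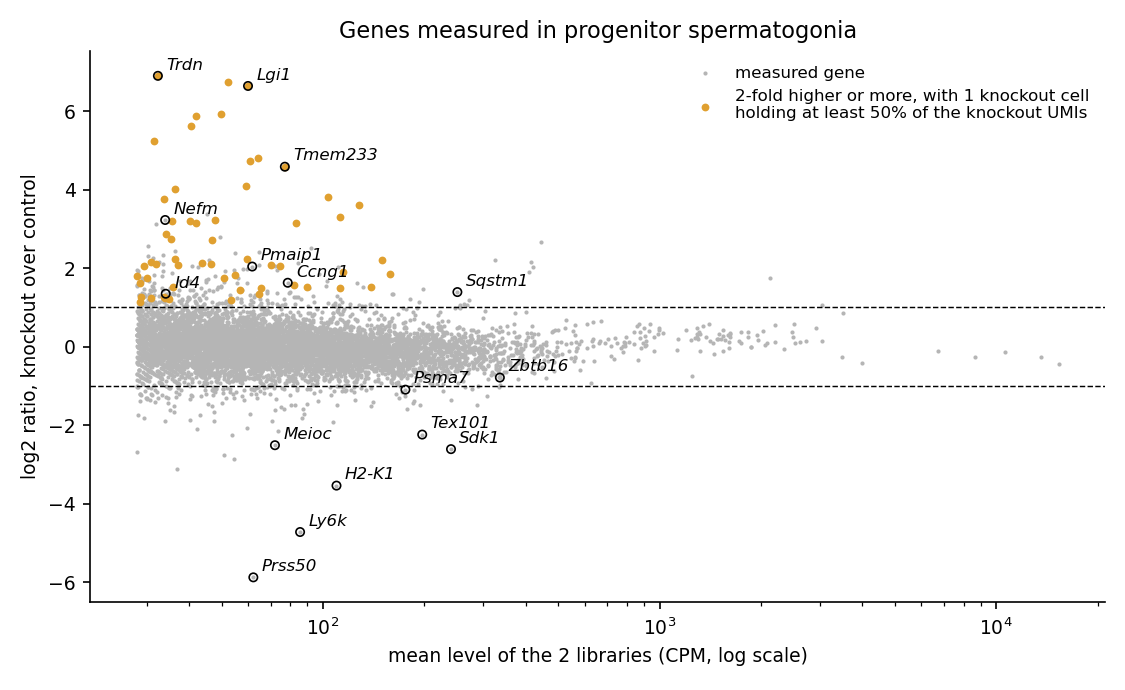
Log2 ratio of knockout over control against the mean level of the 2 libraries (CPM, log axis) for the 7582 genes measured in progenitors, with dashed lines at 2-fold. Orange points are the genes at least 2-fold higher of which 1 knockout cell holds at least 50% of the knockout UMIs, and circled genes are named.

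The highest ratios belonged to single cells. Trdn had 46 UMIs in 2 knockout members, 45 of them in 1, against 2 in the control. Lgi1 had 85 UMIs in 1 knockout member and 5 in 5 control members, Tmem233 106 in 1 and 28 in 6, and Trpm5 80 in 1 and 30 in 4. Kcnh7 (68 of 70 UMIs), Adamtsl5 (87 of 89) and Itgbl1 (43 of 45) were of the same kind. Eln and Mfap4, genes of elastic fibres, followed the stromal RNA, with log2 ratios of 3.6 and 3.30 that were 0.80 and 1.54 without the members holding somatic or later RNA. More widely held were Il33, a cytokine gene, with 59 UMIs in 8 knockout members (82.4 CPM) against 36 in 20 control members (7.83 CPM), and Slpi, a protease inhibitor gene, with 44 UMIs in 6 against 7 in 4.

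The 2 lowest ratios of named genes belonged to genes of later germ cells. Prss50 had 565 UMIs in 71 control members and a single knockout UMI (log2 ratio -5.88, -11.77 to -3.97), and Ly6k 761 UMIs in 87 control members and 4 in 3 knockout members, -4.72 (-6.77 to -3.53). H2-K1, which encodes a class I histocompatibility chain, had 932 UMIs in 123 and 12 in 7 members, -3.54 (-4.55 to -2.78). Spdya, Stxbp5l, Dpep3, Sdk1, Meioc, Rims2, Tex101 and Cep112 lay between -3.12 and -2.15. Without the members holding somatic or later RNA, Prss50 was at -2.06, H2-K1 at -2.14, Ly6k at -1.43 and Cep112 at -1.24, and the rest of these lay between -1.02 (Dpep3) and -0.33 (Stxbp5l). Acta2, a smooth muscle gene, was at -2.11 with all members and at 0.71 without them. Myoid markers stood at 10 or more UMIs per 10000 in 3 control members and in no knockout member. Prss50 and Meioc chose the members with later RNA, so their own values without those members are in part set by that choice.

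Of 26 stem cell genes 7 were measured, and 2 of them, Id4 and Ret, were at least 2-fold higher in the knockout members. The median of the 7 was 0.41, and each had a ratio above 0. Id4 and Etv5 were measured only through their knockout level, so that their ratio could only be above 0. Id4, an inhibitor of basic helix-loop-helix factors that marks cells with stem cell activity, was at 48.9 CPM (34.1 to 68.0, 18 of 52 cells) against 19.4 (15.6 to 23.8, 65 of 335 cells), a log2 ratio of 1.35 (0.73 to 1.92). Ret, the signalling partner of GFRA1, was at 60.1 CPM (43.5 to 80.9) against 28.7 (24 to 34.1), a ratio of 1.08 (0.53 to 1.57). Etv5, a factor downstream of GDNF, was at 39.1 against 23.3 CPM (0.77, 0.09 to 1.36), and Cd9 and Mycn at 0.19 and 0.01. Without the members holding somatic or later RNA the list's median was 0.77, with Id4 at 1.55 and Ret, no longer past 2-fold, at 0.93.

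Lhx1 was too low in the control members to count as measured, with 8 UMIs in 8 of 335 cells against 15 UMIs in 8 of 52 knockout cells, a ratio of 3.55 (2.26 to 5.04). Ret and Etv5 were level between the libraries in GFRA1-positive cells, at -0.14 and 0.04, whereas Id4 and Lhx1 stood at 0.77 and 1.02 there. In KIT-positive cells the ratios were 1.10 for Ret, 1.27 for Etv5 and 1.42 for Id4, with a list median of 0.85. With 2 marker UMIs asked of a member (208 control and 33 knockout cells) Ret was at 0.30 and Id4 at 0.50, and with cells thinned to 5000 UMIs before the rule Ret was at 1.83. The libraries also differed at the edge of the gate, with 1 UMI of Gfra1 in 28.8% of knockout and 16.1% of control members. In those members Ret was at 94.7 and 46.4 CPM and Id4 at 81.1 and 34.2 CPM, knockout first. In members at 0 UMIs of Gfra1 Ret was at 44.6 and 24.9 CPM and Id4 at 34.4 and 16.2 CPM. At 5000 UMIs per cell Id4 was seen in 21.3% of knockout members (10.7 to 35.7) and 8.33% of control members (5.41 to 12.1), but also in 20.8% and 16.3% of Sertoli cells, so for Id4 such a share does not set germ cells apart. Ret was seen in 25.5% and 14.9% of members and in 0.224% and 0.301% of Sertoli cells.

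Among genes shared by all undifferentiated spermatogonia the members differed little. Of 24, 17 were measured, of which 1 was 2-fold higher and none lower, with a median of 0.15. Ccnd2, the gene of cyclin D2, was at 157 CPM (129 to 188) against 71.6 (64.1 to 79.8), a ratio of 1.13 (0.81 to 1.44), and in GFRA1-positive cells at 0.46. Ccnd2 was at 0.86 without the members holding somatic or later RNA, so no gene of the list was 2-fold higher, and the list's median was -0.12. Pou3f1, a factor that GDNF maintains, was at 187 against 101 CPM (0.89, 0.60 to 1.17). Zbtb16, which encodes the PLZF repressor of undifferentiated cells, was lower at 246 against 425 CPM (-0.79, -1.02 to -0.57), and Foxo1 at 207 against 288 CPM (-0.47, -0.73 to -0.23). Sall4 (0.04), Sohlh1 (0.15) and Lin28a (-0.28) had intervals that include 0. With cells thinned to 5000 UMIs before the rule, Zbtb16 stood at 0.47.

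With all members, genes of meiotic entry were the list farthest below 0. Of 21, 16 were measured, 9 were at least 2-fold lower and 15 were below 0, with a median of -1.10. Meioc was at 21.0 CPM (15 UMIs in 10 cells) against 123 CPM (566 UMIs in 151 cells), a ratio of -2.51 (-3.40 to -1.82). Dmc1, the meiotic recombinase gene, was at 71.3 against 206 CPM (-1.52, -1.97 to -1.13), and Sycp3, of the synaptonemal complex, at 182 against 433 CPM (-1.25, -1.52 to -1.0). Over the same 16 genes the median was -0.14 without the members that held Meioc and Prss50 RNA and -0.08 without those and the somatic ones, with Dmc1 at 0.16 and Sycp3 at 0.14. Meioc itself chose those members, and it stayed at -0.87. Taking cells out by meiotic RNA brings the libraries closer by construction, so these values describe where the RNA lay and bear on no cause.

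**Figure D4:**
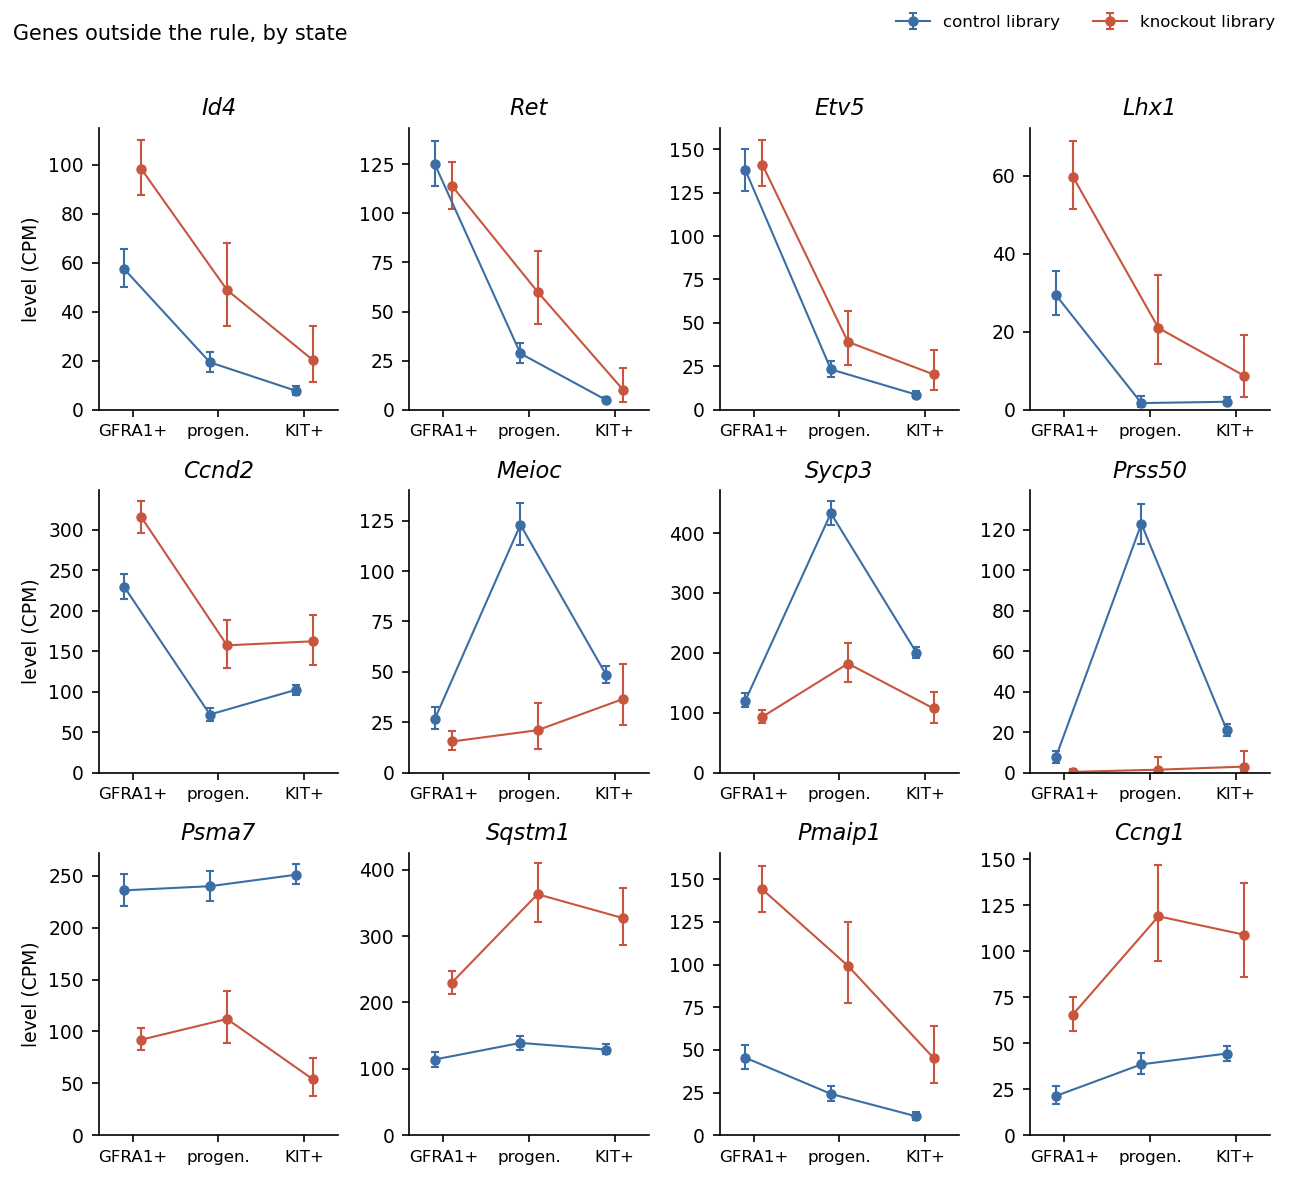
Levels (CPM) of 12 genes outside the rule in GFRA1-positive cells, progenitors and KIT-positive cells of the 2 libraries, with exact 95% Poisson intervals. Meioc, Sycp3 and Prss50 are highest in control progenitors, and Psma7 lies lower and Sqstm1, Pmaip1 and Ccng1 higher in the knockout library in all 3 states.

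Differentiation genes leaned the same way. Of 12 measured of 16, 3 were 2-fold lower and none higher, with a median of -0.37. Besides Prss50 these were Cited1, a transcriptional co-regulator, at 29.3 against 74.0 CPM (-1.30, -2.04 to -0.70), and Rhox13, a homeobox gene, at 23.8 against 52.2 CPM (-1.10, -1.94 to -0.43). Cited1 was at -0.70 and Rhox13 at 0.24 without the members holding somatic or later RNA, and Prss50 alone stayed 2-fold lower. Rbm44 and Tuba3b were the highest at 0.34 and 0.30.

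In the retinoic acid pathway 10 of 22 genes were measured, with a median of 0.00. Aldh1a2, which makes retinoic acid in germ cells, was at 12.6 CPM (9 UMIs) against 44.0 (202 UMIs), a ratio of -1.73 (-2.95 to -0.85), and Rbp4 at 19.6 against 44.8 CPM (-1.15, -2.09 to -0.42). They were at -0.79 and -0.77 without the members holding somatic or later RNA. Cyp26b1, which degrades retinoic acid, was at 68.5 against 21.3 CPM (1.69, 1.16 to 2.19), but 1 of 8 knockout cells held 20 of its 49 UMIs and without somatic and later members it was at 0.37. It was measured only through its knockout level. Aldh1a1, a Sertoli cell enzyme, was at 0.81, with 12 of 31 UMIs in 1 cell.

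Transcripts of the other proteasome genes differed little between the libraries. All 14 measured 20S genes lay between -0.06 (Psmb2) and 0.31 (Psmb7), with a median of 0.15 and none past 2-fold. The 19 genes of the 19S particle had a median of 0.03, from Psmd6 at -0.61 (-1.16 to -0.14) to Psmc1 at 0.55 (0.21 to 0.86), and in GFRA1-positive cells a median of 0.35. Of 15 genes of assembly factors, activators and immunosubunits the median was 0.07. Nfe2l1, the factor that raises proteasome genes when the proteasome is impaired, was the highest of them at 147 against 82.0 CPM (0.84, 0.51 to 1.15), followed by Psmd5 (0.49), and Psmb10 (-0.45) and Ddi2 (-0.42) were the lowest.

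The 1 gene of 16 measured ubiquitin and shuttle genes past 2-fold was Sqstm1, which encodes p62, a receptor that takes ubiquitinated proteins to autophagy. It had 260 UMIs in 43 of 52 knockout members, 363 CPM (321 to 410), and 637 UMIs in 226 of 335 control members, 139 CPM (128 to 150), a log2 ratio of 1.39 (1.18 to 1.60). The ratio was 1.35 without the members holding somatic or later RNA, 1.30 without the top cell, 1.01 in GFRA1-positive and 1.34 in KIT-positive cells. At 5000 UMIs per cell it was seen in 66.0% and 45.1% of members, and Sertoli cells, which hold more of it, in 81.8% and 68.3%. The rest of the list had a median near 0, with Rad23b lowest at -0.49.

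In the p53 pathway a few targets stood higher while most genes lay near 0. Of 17 measured of 28, 3 were at least 2-fold higher and none lower, and the median was 0.16. Of the 3, Pmaip1 and Sesn2 were measured only through their knockout level. At their control level a gene could not be measured unless it was higher in the knockout library. Pmaip1, which encodes the death-promoting BH3 protein NOXA, had 71 UMIs in 29 of 52 knockout members, 99.2 CPM (77.5 to 125), and 111 UMIs in 62 of 335 control members, 24.2 CPM (19.9 to 29.1), a ratio of 2.04 (1.59 to 2.48). Ccng1, the gene of cyclin G1, had 85 UMIs in 27 members, 119 CPM (94.9 to 147), against 177 in 115, 38.5 CPM (33.0 to 44.6), a ratio of 1.63 (1.23 to 2.01). Both were spread over cells, with at most 7 and 10 UMIs in 1 knockout member.

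Sesn2, a stress-induced regulator of growth signalling, was the third at 47.5 against 20.0 CPM (1.26, 0.63 to 1.83). Trp53 itself was at 0.07 and Mdm2, its inhibitor and target, at 0.09, while Mdm4 and Xpc were lowest at -0.34 and -0.15. Cdkn1a, which encodes p21, was under the limit for a measured gene, with 12 UMIs in 11 of 52 knockout members and 32 UMIs in 21 of 335 control members (1.30, 0.18 to 2.26). Pmaip1 was at 1.66 and 2.06 and Ccng1 at 1.62 and 1.31 in GFRA1-positive and KIT-positive cells. Without the members holding somatic or later RNA Pmaip1 was at 1.95, Ccng1 at 1.40 and Sesn2 at 1.35. At 5000 UMIs per cell Pmaip1 was seen in 31.9% of knockout (19.1 to 47.1) and 10.1% of control members (6.85 to 14.1) and in 0.746% and 0.602% of Sertoli cells, and Ccng1 in 38.3% and 14.2% of members and 9.93% and 9.18% of Sertoli cells.

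In the BCL2 family 9 of 18 genes were measured, of which 1 was at least 2-fold higher, at 1.02, and none lower. The median was 0.02, and Bik, the second highest, stood at 0.88 and Xiap, the lowest, at -0.44. Among 12 measured G1 regulators Cdkn1c was 2-fold higher (102 against 49.0 CPM, 1.07) and Cdk6 2-fold lower (58.7 against 125 CPM, -1.07, -1.58 to -0.63), with Cdkn2b at 0.93 and Rb1 at -0.90. Cdkn1c was at 0.81, no longer past 2-fold, and Cdk6 at -1.30 without the members holding somatic or later RNA. Cdk6 was at -1.96 in GFRA1-positive cells. Genes of DNA replication (23 measured, median -0.21) and of mitosis (25 measured, median -0.03) had 1 member each 2-fold lower, Rrm2 at -1.22 and Bub1 at -1.12, which stood at -0.12 and -0.06 without those members. Gins1 (0.45) and Ccnb2 (0.64) were their highest. Over all measured genes 3.97% were 2-fold higher and 2.18% lower, so a count of 1 gene is not read as a result about any of these lists. At 5000 UMIs per cell Mki67, a gene of cycling cells, was seen in 23.4% of knockout (12.3 to 38.0) and 30.2% of control members (25 to 35.9), and in 8.81% and 1.81% of Sertoli cells.

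With all members, immediate-early genes, which cells switch on within minutes of a stimulus or of dissociation, were the list farthest above 0. All 15 measured had a ratio above 0, 6 were at least 2-fold higher, and the median was 0.87, as it was in GFRA1-positive cells (0.87), while in KIT-positive cells it was 1.86. Klf2 was at 207 against 72.0 CPM (1.52), but 1 knockout member held 88 of its 148 UMIs. Fos was held more widely, at 363 CPM (42 of 52 members) against 173 CPM (150 of 335 members), a ratio of 1.07 (0.86 to 1.27). Socs3 was at 1.30 and Klf6 the lowest at 0.09. Without the members holding somatic or later RNA 3 of the 15 were 2-fold higher, with Fos at 1.15, Socs3 at 0.62 and Klf2 at 0.48.

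Stress genes split within their lists. Of 15 measured genes of the integrated stress and unfolded protein response, Ddit3, a death-promoting factor of that response, was at 43.3 against 18.5 CPM (1.24, 0.59 to 1.84) and Ppp1r15a at 127 against 65.1 CPM (0.97), while the endoplasmic reticulum chaperones Sdf2l1 (-1.89, -3.03 to -1.05) and Hsp90b1 (-0.49) were lower. Sdf2l1 was at -0.61 and Ddit3 at 1.44 without the members holding somatic or later RNA. Ddit3 was measured only through its knockout level. Of 16 heat shock genes none passed 2-fold, from Chordc1 at -0.76 to Hspa1b at 0.89, with a median of 0.00. Of 17 antioxidant genes none passed 2-fold either, but the median was 0.45, with Gpx1 at 88.0 against 44.8 CPM (0.98) and Keap1 at 0.95 the highest and Sod2 (-0.72) and Gclm (-0.38) the lowest. The antioxidant median was 0.23 without those members.

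Of 17 measured genes of germline RNA control 1 was 2-fold lower, 15 had a ratio below 0 and the median was -0.50, which was -0.52 without the members holding somatic or later RNA. Tex101, a germ cell surface protein gene, was the one past 2-fold at 68.5 against 326 CPM (-2.24, -2.69 to -1.84) and stood at -0.52 without them, which leaves none past 2-fold, and Boll was at -0.96. Dnd1 (0.09) and Gtsf1 (0.02) were the highest. In GFRA1-positive cells the list's median was -0.34. Of 8 measured DNA methylation genes none passed 2-fold, from Hells at -0.61 and Tet3 at -0.50 to Mbd2 at 0.09 and Gadd45b at 0.69. Of 16 genes of GDNF and FGF signalling none passed 2-fold, with Egr1 (0.98) and Ptpn11 (0.63) highest.

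**Figure D5:**
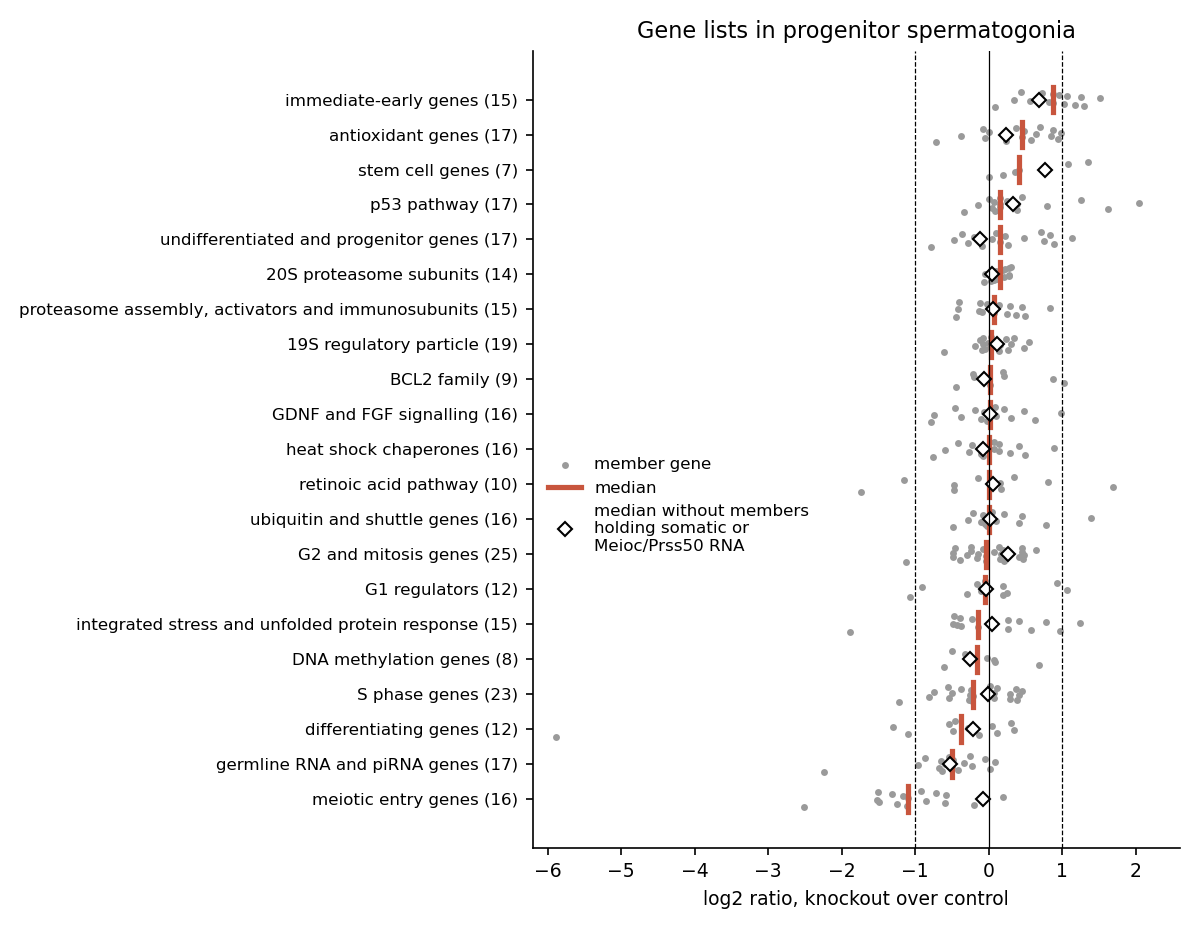
Log2 ratio of knockout over control for the measured members of each gene list (grey points, number measured in brackets), with the list median (red line) and the median without members holding somatic or Meioc and Prss50 RNA (diamond). The median of meiotic entry genes is -1.10 with all members and -0.08 without those, and that of immediate-early genes 0.87 and 0.68.

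Genes whose ratio stayed past 2-fold without the top cell and without both kinds of member were picked out after the values had been seen, and are given with no weight beyond their counts. There were 118 higher and 54 lower. Among the higher ones held by several cells, Nefm, a neurofilament gene, had 44 UMIs in 19 of 52 knockout members and 30 in 21 of 335 control members (3.23, 2.53 to 3.96), and was at 1.77 and 2.10 in GFRA1-positive and KIT-positive cells. Phkg1, a phosphorylase kinase gene, had 75 UMIs in 24 members against 114 in 72 (2.08, 1.64 to 2.51), and was at 1.95 and 2.08 in the other states. Among the lower ones, Med12l had 12 UMIs in 9 knockout members against 294 in 153 control members (-1.88, -2.90 to -1.10), Ano10 9 in 9 against 213 in 125 (-1.81, -3.03 to -0.93), and Cadps2 31 in 18 against 561 in 182 (-1.47, -2.07 to -0.97). Mctp1 was at -1.35 in progenitors and -2.78 in GFRA1-positive cells.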

How the data were processed

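Whole testis gave 1 control and 1 knockout library by 10x 3′ V3 chemistry. The authors deposited raw UMI counts for each gene in each barcode. Cell Ranger 7.1.0 made them, per the file headers, and mm10 is the build named by the submitters' processing notes. The matrices were not filtered for cells and hold 146528736 control and 112746953 knockout UMIs over 32285 genes. Members were found by the rule given above, and Scrublet (scanpy 1.11.5) scored doublets. The threshold it set by itself marked 4.35% of control cells and 0 knockout cells, under the 0.5% taken as a sign of failure, so the control threshold was used for both (2.48% of knockout cells); calls were removed only as an alternative.

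UMIs were summed over members per library. A log2 ratio has 0.5 added to each count, with an exact conditional interval; levels have exact Poisson intervals, shares Clopper-Pearson ones, all at 95% (scipy 1.17.1). A gene was measured when the mean of both libraries' levels was worth at least 20 UMIs in the smaller sum, and the 16 genes of the rule were left out. Identifiers with the same symbol were summed. All 431 genes of the 21 lists were found, 2 of them through RefSeq synonyms. Barcodes of 10 to 100 UMIs stood for free RNA. The intervals were tried on simulated counts that held counting error only. That trial cannot show how they do where cells differ, as for genes held by 1 cell.

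Genes named are Psma7, the genes of the rule and Rarg, the 2 members of each list at either end, the 12 highest and 12 lowest ratios, and the 8 highest and 8 lowest ratios of progenitors over each neighbouring state in the control. Not named were haemoglobin, ribosomal protein and mitochondrial genes, gene models without a name, and genes whose level free RNA at a 10% share could reach. Further list members (Etv5, Lhx1, Sycp3, Fos, Sesn2, Trp53, Mdm2, Cdkn1a, Rhox13, Mki67, Sall4, Sohlh1 and Lin28a) were named after their values had been seen. Some genes that the rule names are not reported here. The members and lists were chosen with earlier results of these data known. Alternatives were other limits of depth, mitochondrial share, Gfra1, Kit and markers, thinning to 5000 UMIs, free RNA subtracted, other minimums, centring and equal weight per cell; 3 were added after seeing the data.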

Additional observations from a re-analysis of the deposited data

How the results depend on the processing

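No paired analysis was possible because each genotype has 1 library. The knockout over control ratio of progenitors per cell, 0.16, stayed between 0.136 and 0.201 in 14 alternatives, all within its counting interval. The knockout progenitor share of the undifferentiated pool, 23.9%, was 15.9% with 0 UMIs of Gfra1 allowed, 16.6% with 2 marker UMIs asked, 17% without Sox3 in the rule and 43.6% after thinning, and it stayed below the control share in each. The 301 higher genes became 191 with 0 UMIs of Gfra1, 197 without Sox3, 82 after thinning, 650 and 76 with minimums of 10 and 50 UMIs, 5744 with no minimum, 193 without members holding stromal or myoid RNA and 164 without each gene's top cell. The 165 lower genes became 89 with 2 marker UMIs, 42 after thinning, 264 and 67 with minimums of 10 and 50 UMIs, 1408 with no minimum, 69 without members holding Meioc and Prss50 RNA and 288 without each gene's top cell. Psma7 went from -1.09 to -1.68 after thinning, and Rarg from -1.11 to -2.29 without the top cell. The last of these alternatives shifts the median gene to -0.15 by its construction; for the others the cause was not tested.

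Of 21 list medians, 8 kept their sign in every alternative run on them, and of 456 values 17 left the interval of the median. Of 2639 values for single genes, 227 left the counting interval and 19 changed the sign of a ratio past 2-fold. With 0 UMIs of Kit allowed, Lgi1 was at -0.72, Adamtsl5 at -0.43, Tmem233 at -2.55 and Trpm5 at -2.82. With 2 marker UMIs Lgi1 was at -0.78 and Trpm5 at -1.02, and without Upp1 in the rule at -0.77 and -3.24. Without the top cell Lgi1 was at -0.49, Adamtsl5 at -0.12, Tmem233 at -2.53 and Trpm5 at -1.40. After thinning Cyp26b1 was at -1.18, Trpm5 at -1.18 and Col5a2 at -0.03. Itgbl1 was at -2.11 with 0 UMIs of Gfra1 and at -0.34 without somatic members, where Acta2 was at 0.54, and Dmc1 was at 0.01 without members holding Meioc and Prss50 RNA. Depth limits what can be said of the knockout members: a gene at 20 UMIs there has a counting interval of more than 2-fold from end to end.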

Other observations

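Single members that held many UMIs of a gene almost silent in the rest were counted after such genes had been seen among the highest ratios. A member was counted when it held at least 20 UMIs of a named gene that was under 5 CPM over the other cells of its state in its own library and in the other library. There were 8 such cells among 335 control progenitors (2.39%, exact 95% interval 1.04 to 4.65) and 8 among 52 knockout progenitors (15.4%, 6.88 to 28.1). In GFRA1-positive cells there were 4 of 234 (1.71%, 0.468 to 4.32) and 10 of 166 (6.02%, 2.93 to 10.8), and in KIT-positive cells 26 of 499 (5.21%, 3.43 to 7.54) and 7 of 29 (24.1%, 10.3 to 43.5). The knockout share was the higher in each of the 3 states, and the intervals overlap in GFRA1-positive cells only. The limit itself favours knockout cells, because a few UMIs elsewhere pass 5 CPM sooner in the smaller knockout sums. Genes counted in knockout progenitors had up to 21 UMIs in the control, and those counted in control progenitors at most 2 in the knockout library. The higher knockout share was thus in part set by the rule, and no order is read from it.

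In control progenitors 2 of the 8 cells held lymphocyte genes, such as Ccl4 with 112 UMIs and Gzmc with 75, and 1 cell with stromal or myoid markers held Krt19 and Upk3b, genes of surface epithelium. The other 5 cells held 1 such gene each: Slc25a54 (22 UMIs), Slit1 (24), Vmn2r126 (23), Prr5l (23) and Inhbc (21). A GFRA1-positive knockout cell held lymphocyte genes too, with 154 UMIs of Gzmc. In knockout progenitors the 10 genes were Lgi1 (85 UMIs), Adamtsl5 (87), Kcnh7 (68), Trdn (45), Itgbl1 (43), P4htm (26), Tspan12 (25), P2rx7 (24), Prss51 (22) and Bcas1os2 (20). Of the 8 knockout cells 6 held neither 10 stromal or myoid UMIs per 10000 nor a Scrublet call, and of the 8 control cells 7. Each of the 8 knockout cells held at least 5 UMIs of Ddx4 and Dazl. In the smaller knockout sum the limit of 5 CPM is reached with fewer UMIs than in the control.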
